A study of Homo sapiens with 6 samples.

Results

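The GalNAc sialyltransferases ST6GALNAC1 to ST6GALNAC6 were examined as a family of 6 genes, taken by name. Each probe set of the deposited table was named by the RefSeq accession at the start of its identifier, which gave 927 genes. The family held 6 of them and 7 of the 1259 probe sets. ST6GALNAC4 had 2 probe sets, and each of the other 5 genes had 1. Transcript signals were compared between RKO C2 F3 (3 arrays) and RKO C2 (3 arrays), here called F3 and C2, with replicates numbered 1 to 3 in both. RKO is an established human colon carcinoma cell line, and both populations are RKO cells with no treatment named in the labels. C2 is a clonal population, and F3 was derived from C2 by fluorescence-activated sorting of cells with low u-PAR, the urokinase receptor. The sample titles call F3 a clonal population too, but whether F3 is itself a clone is given differently in different labels. The study looked for the glycosylation enzyme whose lack leaves u-PAR incompletely matured.

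Sialyltransferases are Golgi enzymes that move sialic acid from CMP-sialic acid onto the ends of glycan chains. The ST6GALNAC enzymes attach it in alpha2,6 linkage to N-acetylgalactosamine (GalNAc), the sugar that starts mucin-type O-glycans and that also occurs in gangliosides. ST6GALNAC1 is the main maker of sialyl-Tn, an O-glycan antigen of colon and other carcinomas that caps the first GalNAc and stops the chain. ST6GALNAC2 also acts on O-glycans, ST6GALNAC3 and ST6GALNAC4 add a second sialic acid to already sialylated core 1 chains, and ST6GALNAC5 and ST6GALNAC6 are known for alpha-series gangliosides.

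All values are log2 signals made by RMA (robust multi-array averaging), so a difference of 1 is a doubling. Median signals of the 6 arrays lay between 5.48 and 5.51, and pairwise correlations of arrays over all probe sets had an r of 0.9981 to 0.9992. The number of arrays limits the precision. C2 replicate 2 held the highest of the 6 values for 26.1% of probe sets, against 13.0% to 18.2% for the other arrays, and F3 replicate 1 held the lowest for 26.0%, against 12.2% to 17.8%. Of 13 colon epithelial markers listed, only MUC2, MUC13 and LGALS4 were among the named probe sets, at 4.18 to 5.13. These signals lay within the range of the leukocyte markers (2.49 to 5.80). With so few markers at such signals, the colon label could hardly be checked. None of 21 leukocyte markers and none of 7 fibroblast and endothelial markers passed the test described below, which 0.0794% of all probe sets passed. The mean log2 signal of the leukocyte list per array was 3.90 to 3.97 in F3 and 3.92 to 3.97 in C2. That of the fibroblast and endothelial list was 3.47 to 3.53 in F3 and 3.54 to 3.59 in C2.

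The signals of the 6 genes differed widely. ST6GALNAC4 was bright in both populations, ST6GALNAC6 was intermediate, and ST6GALNAC1, ST6GALNAC2, ST6GALNAC3 and ST6GALNAC5 stayed below 4 on all 6 arrays. Between F3 and C2 no probe set of the family rose or fell past the test: in limma, 0 of the 7 probe sets passed an adjusted p of 0.05, where 0.0794% of all probe sets did (1 of 1259, from another gene family). In bulk RNA, fewer expressing cells and less RNA per cell cannot be told apart.

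Averaged over the 6 arrays, the ST6GALNAC4 probe sets stood at 11.2 (identifier ending in _s_at) and 11.1 (identifier ending in _at), at percentiles 91.7 and 91.4 of the table. ST6GALNAC6 stood at 7.59, percentile 73.5. ST6GALNAC2 followed at 3.72, ST6GALNAC3 at 3.09, ST6GALNAC1 at 3.03 and ST6GALNAC5 at 2.74, at percentiles 23.7, 13.5, 12.2 and 6.83. Probe sets bind their targets with unlike strength, so this is an order of signals and not of transcript amounts. The step from ST6GALNAC4 to ST6GALNAC6 was 3.49, and that from ST6GALNAC6 to ST6GALNAC2 was 3.87, with no overlap of the arrays in either case. ST6GALNAC3 and ST6GALNAC1 were not separated: their ranges overlapped, although ST6GALNAC3 was above ST6GALNAC1 on 5 of 6 arrays. The ST6GALNAC4 probe sets also overlapped each other.

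**Figure D1:**
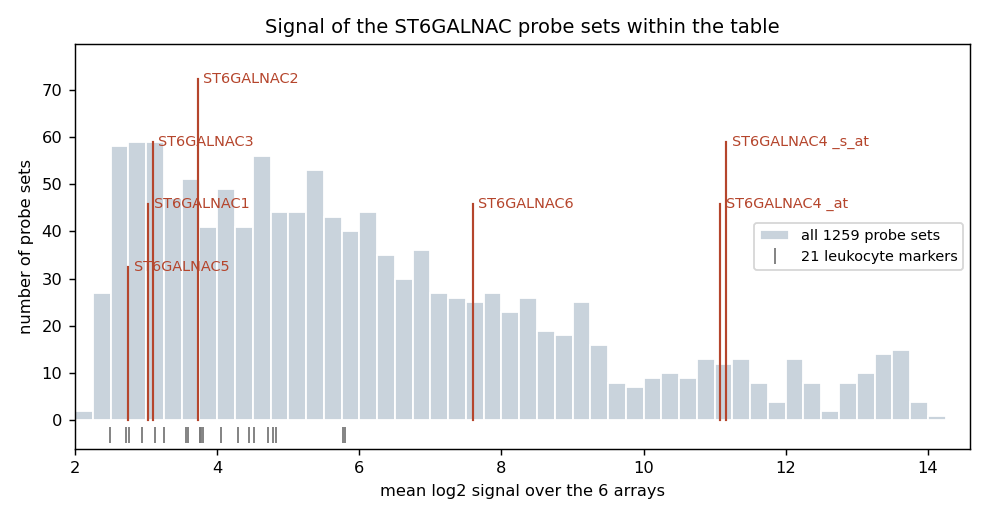
Histogram of the mean log2 signal over the 6 arrays for all 1259 probe sets, with red lines at the 7 ST6GALNAC probe sets and grey ticks below for 21 leukocyte markers. ST6GALNAC4 (11.2 and 11.1) and ST6GALNAC6 (7.59) stand to the right of every leukocyte marker, and the other 4 genes stand among them.

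The table has no detection calls, and absence of a transcript could not be called. Leukocyte markers, genes that colon carcinoma cells are not known for, ran from 2.49 to 5.80 with a median of 3.77. ST6GALNAC4 and ST6GALNAC6 lay above all 21 of them. ST6GALNAC2 lay above 8 of the 21, ST6GALNAC1 and ST6GALNAC3 above 4 each, and ST6GALNAC5 above 2. Whether these 4 genes were transcribed at all in RKO was thus not resolved by their signals, and their changes are changes of dim signals.

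Against the other sialyltransferases in the table, 20 genes in all counting this family, ST6GALNAC4 had the brightest signal. ST3GAL1, which makes the sialylated core 1 chain that ST6GALNAC4 extends, came next at 8.37, and ST6GALNAC6 was the third. ST6GAL1, which puts alpha2,6 sialic acid on N-glycans, was the fourth at 7.52. The other members stood at places 11 (ST6GALNAC2), 13 (ST6GALNAC3), 14 (ST6GALNAC1) and 15 (ST6GALNAC5). The same caution on comparing probe sets holds here.

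**Figure D2:**
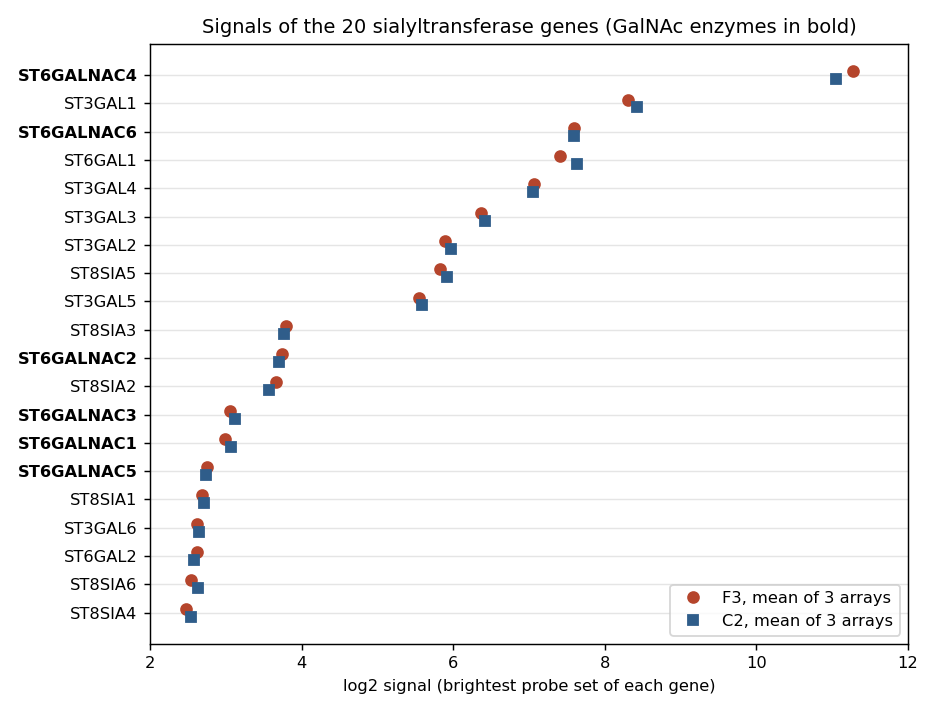
Mean log2 signal of the 20 sialyltransferase genes in F3 (circles) and C2 (squares), 3 arrays each, with the brightest probe set standing for each gene and the ST6GALNAC genes in bold. ST6GALNAC4 lies near 11 in both populations (11.3 in F3 and 11.0 in C2), and the next gene, ST3GAL1, lies at 8.31 in F3 and 8.43 in C2.

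The genes with the highest and the intermediate signal are neighbours. In the RefSeq annotation of GRCh38, ST6GALNAC4 and ST6GALNAC6 lie next to each other on chromosome 9, ST6GALNAC3 and ST6GALNAC5 next to each other on chromosome 1, and ST6GALNAC1 and ST6GALNAC2 near each other on chromosome 17. RefSeq also lists a noncoding read-through transcript, ST6GALNAC4-ST6GALNAC6-AK1, across the chromosome 9 pair, and whether the probes bind it was not determined. Start windows from RefSeq (GRCh38.p14) were matched for 4 of the 6 genes, and the 250 bases before each start are shown to compare the chromosome 9 pair (bright and intermediate) with the dim chromosome 1 pair, 5′ to 3′ on the gene's strand. Capitals mark the motif GGGCGG (the GC box) or its reverse complement CCGCCC.
ST6GALNAC4, chr9:127917042-127917291, minus strand: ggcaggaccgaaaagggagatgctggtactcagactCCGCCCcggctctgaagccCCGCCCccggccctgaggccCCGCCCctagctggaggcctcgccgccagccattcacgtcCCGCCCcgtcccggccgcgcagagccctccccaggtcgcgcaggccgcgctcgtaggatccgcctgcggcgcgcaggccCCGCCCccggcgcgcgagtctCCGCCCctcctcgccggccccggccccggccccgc
ST6GALNAC6, chr9:127905325-127905574, minus strand: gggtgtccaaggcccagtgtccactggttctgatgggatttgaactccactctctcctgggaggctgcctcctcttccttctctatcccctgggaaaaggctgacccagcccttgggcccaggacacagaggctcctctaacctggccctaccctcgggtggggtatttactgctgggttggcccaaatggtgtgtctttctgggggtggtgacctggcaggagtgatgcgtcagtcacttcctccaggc
ST6GALNAC6, chr9:127899604-127899853, minus strand: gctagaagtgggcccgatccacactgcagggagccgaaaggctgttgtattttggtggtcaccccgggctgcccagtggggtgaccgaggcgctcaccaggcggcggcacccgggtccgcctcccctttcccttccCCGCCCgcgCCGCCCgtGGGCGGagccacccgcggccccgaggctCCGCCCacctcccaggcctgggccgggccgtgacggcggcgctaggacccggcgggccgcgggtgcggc
ST6GALNAC6, chr9:127897409-127897658, minus strand: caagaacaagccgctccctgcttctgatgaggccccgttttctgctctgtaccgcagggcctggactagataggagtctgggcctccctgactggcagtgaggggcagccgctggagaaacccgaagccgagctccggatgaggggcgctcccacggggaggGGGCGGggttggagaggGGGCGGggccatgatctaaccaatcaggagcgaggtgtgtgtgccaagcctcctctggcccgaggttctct
ST6GALNAC3, chr1:76074496-76074745, plus strand: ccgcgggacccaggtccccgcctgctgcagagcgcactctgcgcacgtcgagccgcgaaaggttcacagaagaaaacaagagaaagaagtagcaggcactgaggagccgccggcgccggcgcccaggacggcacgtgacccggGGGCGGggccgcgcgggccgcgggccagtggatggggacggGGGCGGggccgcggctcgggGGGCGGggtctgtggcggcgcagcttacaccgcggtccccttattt
ST6GALNAC5, chr1:76867230-76867479, plus strand: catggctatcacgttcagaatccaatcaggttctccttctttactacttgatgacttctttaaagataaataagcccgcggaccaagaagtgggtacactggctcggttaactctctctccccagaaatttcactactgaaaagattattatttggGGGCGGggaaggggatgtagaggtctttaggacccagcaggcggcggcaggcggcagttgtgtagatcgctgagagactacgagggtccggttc

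The ST6GALNAC4 window held 6 GC boxes, 34 CpG dinucleotides and 79.2% G and C, more G and C than 95.9% of the 34943 windows in the table. The ST6GALNAC6 windows, printed from the most upstream start to the most downstream, held 0, 4 and 2 GC boxes and 2, 29 and 13 CpG. Its more downstream windows, and the ST6GALNAC4 window, are also starts of the read-through transcript. ST6GALNAC3 held 3 GC boxes and 33 CpG, and ST6GALNAC5 held 1 GC box and 11 CpG, which is the median CpG number of all windows. A GC box on either strand was present in 42.5% of all windows, and TATAAA in 10.8% of them but in 0 of these 6. In G and C content the dim ST6GALNAC3 window, at 73.2%, was nearer to the bright ST6GALNAC4 window than to that of the dim ST6GALNAC5, at 49.6%. A single ST6GALNAC6 probe set does not tell which of its 3 starts was used.

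ST6GALNAC1, the sialyl-Tn synthase, had signals of 2.97, 2.99 and 3.03 in F3 replicates 1 to 3, against 3.12, 3.06 and 3.02 in C2. The means were 3.00 ± 0.028 in F3 and 3.07 ± 0.052 in C2 (SD, n = 3 each). The groups met at their edge, with the highest F3 array (replicate 3) just above the lowest C2 array (replicate 3). The log2 change was -0.072 (SE 0.052, 95% interval -0.19 to 0.048, limma adjusted p = 0.97), so a fall below 0.88-fold or a rise above 1.03-fold in signal lies outside the interval.

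ST6GALNAC2 had signals of 3.80, 3.63 and 3.80 in F3, against 3.63, 3.73 and 3.75 in C2. F3 replicate 2 was the lowest of the 6 and the other F3 arrays the highest, so the C2 arrays lay inside the F3 range. The change was 0.037 (95% interval -0.11 to 0.19, limma adjusted p = 0.998).

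ST6GALNAC3, which adds the second sialic acid to sialylated core 1 and to the ganglioside GM1b, had signals of 3.17, 3.06 and 2.95 in F3, against 3.16, 3.13 and 3.07 in C2. The F3 arrays spread over the whole C2 range and beyond it on both sides. The change was -0.061 (95% interval -0.22 to 0.094, limma adjusted p = 0.998).

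ST6GALNAC5, best known as a brain enzyme that makes the ganglioside GD1alpha, had signals of 2.84, 2.69 and 2.71 in F3, against 2.86, 2.79 and 2.57 in C2. C2 replicates 1 and 3 were the highest and the lowest of the 6 arrays, with F3 between them. The change was 0.0070 (95% interval -0.19 to 0.20, limma adjusted p = 0.998).

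ST6GALNAC6, an enzyme with broad ganglioside activity that also makes disialyl Lewis a in colon epithelium, had signals of 7.45, 7.63 and 7.70 in F3, against 7.33, 7.86 and 7.59 in C2. The means were the same to the second decimal, 7.59 ± 0.13 in F3 and 7.59 ± 0.26 in C2 (SD, n = 3 each). Replicate 1 was the lowest in each population, and C2 replicate 2 was the highest of all. The change was 0.0031 (SE 0.13, 95% interval -0.29 to 0.29, limma adjusted p = 0.998), which is 0.82-fold to 1.22-fold. In a fit blocked on replicate number the interval was -0.19 to 0.19.

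ST6GALNAC4, the disialyl-T enzyme of O-glycans, gave unlike pictures in its 2 probe sets. The _at probe set had signals of 11.18, 11.10 and 11.00 in F3, against 11.20, 10.95 and 11.06 in C2, and its F3 arrays lay within the C2 range. Its change was 0.021 (SE 0.077, 95% interval -0.15 to 0.20, limma adjusted p = 0.998), or 0.90-fold to 1.15-fold. The _s_at probe set, a suffix Affymetrix gives to probes shared by several transcripts, had signals of 11.45, 11.20 and 11.18 in F3, against 11.34, 10.68 and 11.13 in C2. F3 replicate 1 was the highest of the 6 and C2 replicate 2 by far the lowest, and the groups overlapped.

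The _s_at probe set had the largest change of the family's 7, 0.23 (SE 0.15, 95% interval -0.12 to 0.58, limma adjusted p = 0.97). Its absolute change was above that of 98.4% of all probe sets, and its SD in C2, 0.33, was above that of 99.2%. All 3 same-numbered pairs were higher in F3, by 0.11, 0.52 and 0.051, while the _at probe set differed by -0.021, 0.15 and -0.064. The share of all probe sets with 3 pairs of the same sign was not counted. C2 replicate 2 decided the size: without it the change of the _s_at probe set was 0.045, and without C2 replicate 1 it was 0.37. In a fit blocked on replicate number, the unadjusted limma p of the _s_at probe set was 0.0499 (adjusted p = 0.62), and it was the 1 family probe set of 7 with an unadjusted p under 0.05 in that fit, where 8.02% of all probe sets were.

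**Figure D3:**
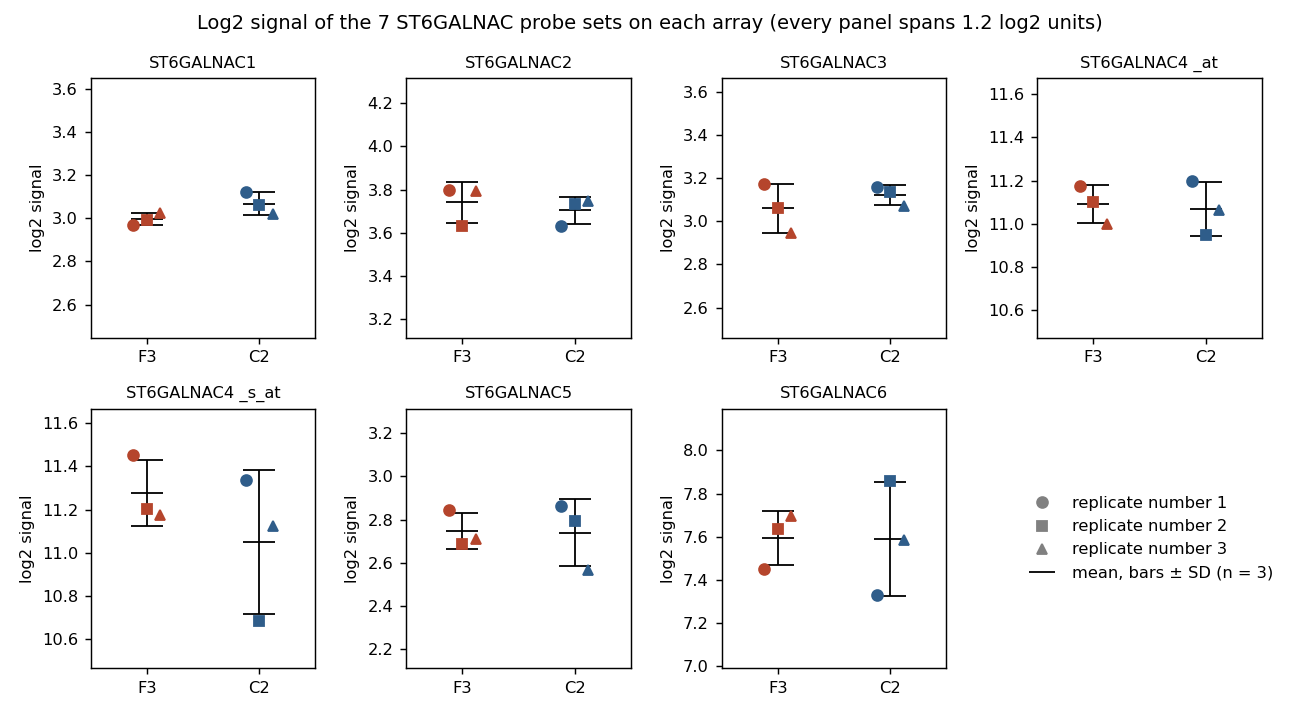
Log2 signal of each ST6GALNAC probe set on the 3 F3 arrays (left) and 3 C2 arrays (right) of every panel. Markers give the replicate number, bars the mean ± SD (n = 3), and each panel spans the same number of log2 units. The populations overlap in all 7 panels, and C2 replicate 2 lies low for ST6GALNAC4 and high for ST6GALNAC6.

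The difference between the ST6GALNAC4 probe sets within an array, _s_at minus _at, was 0.28, 0.10 and 0.18 in F3, against 0.14, -0.27 and 0.063 in C2. C2 replicate 2 was the 1 array where the _s_at probe set was the lower. The means were 0.19 ± 0.087 in F3 and -0.021 ± 0.22 in C2 (SD, n = 3 each), a gap of 0.21 with p = 0.20 in an exact two-sided permutation test of 3 against 3 arrays, whose smallest possible p is 0.10. This test leaves out the pairing, and within pairs 1, 2 and 3 the difference was higher in F3 by 0.14, 0.37 and 0.12. The gap was 0.084 without C2 replicate 2 and 0.29 without C2 replicate 1. Of 74 genes with 2 probe sets, 6 (8.11%), ST6GALNAC4 among them, had changes that lay at least as far apart as the 0.21 over all arrays, and the median distance was 0.044.

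The spread of ST6GALNAC6 in C2 came from replicates 1 and 2 alike, and leaving out C2 replicate 1 or C2 replicate 2 gave changes of -0.13 and 0.14. In C2 replicate 2, ST6GALNAC4 was at its lowest in both probe sets while ST6GALNAC6 was at its highest. The 25% of probe sets with the brightest signals, ST6GALNAC4 among them, had a median deviation of 0.064 in C2 replicate 2 from the mean of the other 5 arrays, and the next 25%, with ST6GALNAC6, one of 0.020. ST6GALNAC6 was at 7.86 in C2 replicate 2 and at most 7.70 on the others. A median over many probe sets does not tell what an array adds to a single one. The part of the array in the ST6GALNAC4 or ST6GALNAC6 value was not tested. Within-group SDs, pooled over both populations, were 0.26 for the _s_at probe set of ST6GALNAC4 and 0.21 for ST6GALNAC6, above 99.0% and 97.6% of the table, whose median was 0.083.

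Across the family, F3 and C2 arrays overlapped for all 7 probe sets, and 10.3% of all probe sets in the table did not overlap. None of the 7 had an unadjusted limma p under 0.05, against 5.4% of all probe sets. Of the 7 changes, 5 were positive and 2 negative, beside 571 positive and 688 negative in the whole table, whose median change was -0.0064. Without a block all 7 intervals included 0. With the replicate block 6 of the 7 did, and that of the _s_at probe set of ST6GALNAC4 ran from 0.00013 to 0.46, while the smallest adjusted p among the 7 was 0.62.

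**Figure D4:**
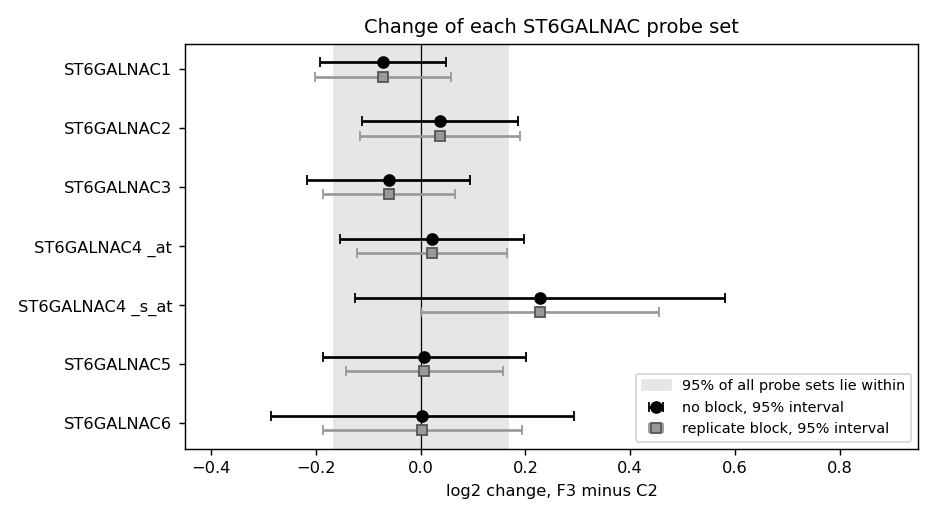
Log2 change, F3 minus C2, of each ST6GALNAC probe set with its 95% interval from limma without a block (black circles) and with the replicate number as a block (grey squares). The grey band holds 95% of the changes of all probe sets (up to 0.17 in size). Only the _s_at probe set of ST6GALNAC4 lies outside the band, at 0.23, and its interval without a block runs from -0.12 to 0.58.

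The same-numbered arrays did not point one way for the other 6 probe sets. ST6GALNAC1 differed by -0.15, -0.070 and 0.0058 between F3 and C2 in pairs 1, 2 and 3, and ST6GALNAC2 by 0.16, -0.099 and 0.047. ST6GALNAC3 differed by 0.016, -0.075 and -0.12, and ST6GALNAC5 by -0.018, -0.10 and 0.14. For ST6GALNAC6 the differences were 0.12, -0.22 and 0.11. Each of these had at least 1 pair on either side of 0.

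**Figure D5:**
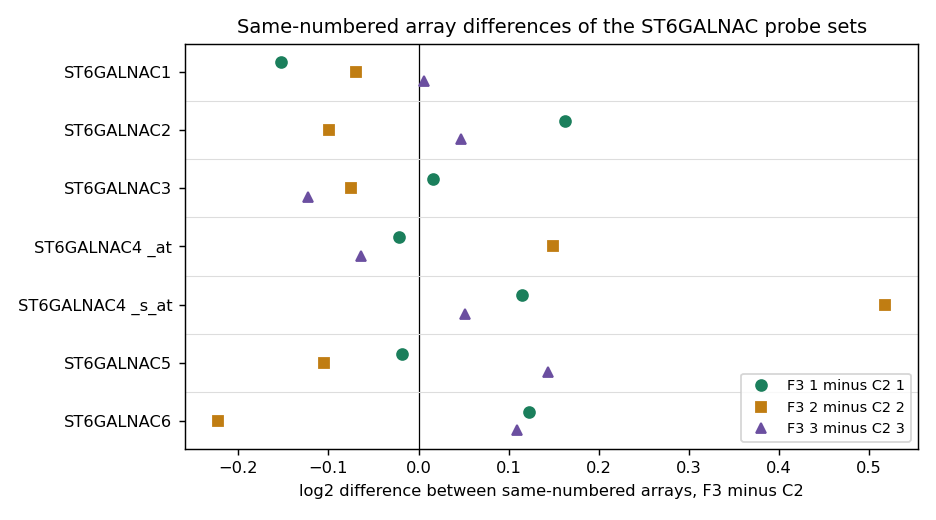
Log2 difference between same-numbered arrays, F3 minus C2, for each ST6GALNAC probe set, with 1 marker per replicate number. The 3 markers fall on both sides of 0 for 6 of the 7 probe sets. All 3 are positive (0.051 to 0.52) for the _s_at probe set of ST6GALNAC4. How often 3 share a sign in the whole table was not counted.

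None of the measured genes that feed the family's enzymes passed the test either. Only 0.0794% of all probe sets did (1 of 1259), so counts of 0 in this and the following lists are near the table's share. Of 22 measured genes that build O-glycan acceptors (GalNAc-transferases and core enzymes, of 24 listed), 0 rose and 0 fell in limma, and their median change was -0.023. GALNT15, a polypeptide GalNAc-transferase, had the smallest p, at 2.97 ± 0.039 in F3 and 3.12 ± 0.044 in C2 (SD, n = 3 each; change -0.15, limma adjusted p = 0.84). GCNT3, which makes core 2 and core 4 branches, was at 4.10 in F3 and 4.24 in C2, and GALNT7, a transferase that adds GalNAc beside an earlier one, at 7.55 in F3 and 7.68 in C2, with limma adjusted p of 0.87 and 0.97. All 3 values were lower in F3 and none passed. In this and the following lists, signals between 2.49 and 5.80 lie within the range of the leukocyte markers, GALNT15 and GCNT3 among them. Whether such genes were transcribed was not resolved.

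Of 14 other sialyltransferases, 0 rose and 0 fell, with a median change of -0.050. The 3 with the smallest p were ST6GAL1 (7.41 ± 0.14 in F3 and 7.63 ± 0.23 in C2), ST8SIA2, a polysialyltransferase (3.67 ± 0.084 in F3 and 3.57 ± 0.058 in C2), and ST3GAL1 (8.31 ± 0.099 in F3 and 8.43 ± 0.15 in C2; SD, n = 3 each). Their limma adjusted p values were 0.97 each. ST3GAL1 and ST6GAL1 had their highest values in C2 replicate 2, at 8.58 and 7.90, and ST8SIA2 in F3 replicate 1, at 3.75. C2 replicate 2, in which ST6GALNAC4 was lowest, held the highest value for 26.1% of all probe sets.

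The donor CMP-sialic acid is made and carried into the Golgi by a short pathway, and 6 of its 7 listed genes were measured. None rose or fell, and the changes ran from -0.028 to 0.061. NANS, the sialic acid synthase, was bright at 10.6 in both populations, and GNE, the enzyme that starts the pathway, was at 8.39 ± 0.14 in F3 and 8.42 ± 0.11 in C2 (SD, n = 3 each). RENBP, a GlcNAc epimerase, had the smallest p of these genes, at 5.36 in F3 and 5.30 in C2 (limma adjusted p = 0.998).

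Ganglioside acceptor genes gave 0 calls among 9, with a median change of -0.027. B4GALNT1, which adds the GalNAc of complex gangliosides, was at 5.07 ± 0.078 in F3 and 4.96 ± 0.033 in C2 (SD, n = 3 each; limma adjusted p = 0.97). ST3GAL2, which sialylates the terminal galactose of gangliosides and core 1, was at 5.90 in F3 and 5.97 in C2 (change -0.071), and its other probe set was at a change of 0.068. ST8SIA5 was at 5.83 in F3 and 5.92 in C2. Genes that remove or acetylate sialic acid gave 0 calls among 4 measured of 6 listed, with the sialidases NEU4 at 6.53 in F3 and 6.45 in C2, NEU1 at 8.32 in F3 and 8.29 in C2, and NEU2 with a change of 0.047. The smallest limma adjusted p in either list was 0.966.

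The genes whose signals ran most like each member over the 6 arrays, by Pearson's r among 926 other named genes, were found for description. They were B3GAT1 for ST6GALNAC6 (r = 0.99), ARF1 for ST6GALNAC3 (0.99), GALT for ST6GALNAC5 (0.99), POMGNT1 for ST6GALNAC4 (0.97), CXCL3 for ST6GALNAC1 (0.96) and JAG1 for ST6GALNAC2 (0.85). The 6 points are arrays that share a normalization and a replicate numbering, so a high r among 926 genes carries little weight. POMGNT1, an O-mannose glycan enzyme, had signals of 8.64, 8.33 and 8.36 in F3, against 8.58, 8.04 and 8.34 in C2. Its lowest value was in C2 replicate 2. B3GAT1, the glucuronyltransferase of the HNK-1 epitope, had 7.88, 8.07 and 8.18 in F3, against 7.79, 8.28 and 8.05 in C2. Its highest value was in C2 replicate 2. Both genes were picked for following a member over these arrays, so a shared extreme in C2 replicate 2 came with the choice. For ST6GALNAC6, 25 genes reached an r over 0.9, and for ST6GALNAC2 none did.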

How the data were processed

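RNA of the 6 samples was extracted with Trizol and made into biotin cRNA, per the labels' protocols. Values in the deposited table are on a log2 scale and were made with RMA, per the submitters' processing notes. The RMA version, the design of the probe sets and the build are not given in the sources consulted. RMA makes arrays alike and shrinks changes of dim probe sets. Of 1259 probe sets, 1043 matched 1 RefSeq symbol each (GRCh38), for 927 genes, and 216 kept their identifiers. All 6 columns were used.

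The 3 F3 and 3 C2 arrays were compared with limma 3.58.1 (R 4.3.3, lmFit and eBayes, two-sided), without a block. P-values were adjusted by Benjamini-Hochberg over all 1259 probe sets, with calls at 0.05. Changes are F3 minus C2. Separate cultures are not stated for the arrays of a group, so a p-value reflects the spread of these arrays, which may be technical. The script was tested on simulated data with planted changes larger than any in this family and without pairing. Recovery of changes as small as the family's was not tested. Deviations of same-numbered arrays from their group means correlated (r = 0.52, 0.18 and 0.26 across probe sets for numbers 1, 2 and 3). All 6 arrays matched their own number best, although these matches are not independent, since deviations were taken within each group of 3. The pairing by number comes from the data and a shared label suffix. The main fit and its intervals leave it out, and it enters only in the replicate block and in same-numbered differences. With the block the SE fell from 0.13 to 0.079 for ST6GALNAC6. It fell from 0.15 to 0.094 for the ST6GALNAC4 _s_at probe set. The SE rose only for ST6GALNAC1, from 0.052 to 0.054. In gene lists, the probe set with the highest mean stood for a gene.

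Named were all ST6GALNAC probe sets, the 3 smallest p in each of 5 pathway lists (marker lists by counts), and the most similar gene per member. The members and lists were chosen with earlier results of these data known. Alternatives were the replicate block, median centring, quantile normalization, no dim probe sets, trend with robust eBayes, array weights, arrays left out, no _x_at probe sets, 1 value per gene and a threshold of 0.10. Promoter windows came from the RefSeq table, and 1504 overlapping pairs on opposite strands were checked for orientation.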

Additional observations from a re-analysis of the deposited data

How the results depend on the processing

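In every alternative run, 0 ST6GALNAC probe sets passed an adjusted p of 0.05. In limma without a block, 0 of the 7 had an unadjusted p under 0.05 (1 with the replicate block), and adjusted p values over all alternatives ran from 0.62 to 0.999. Over all probe sets, 1 passed with all arrays, 2 with the replicate block and 2 at an adjusted p under 0.10. Leaving out 1 array in turn gave 0 to 2: 0 without F3 replicate 1, C2 replicate 2 or C2 replicate 3, and 2 without F3 replicate 2. The block, which pairs same-numbered arrays, changed no family call. The ST6GALNAC1 change stayed negative over its alternatives (-0.096 to -0.045), as did ST6GALNAC3 (-0.12 to -0.0046), and ST6GALNAC2 stayed positive (0.0013 to 0.10). The replicate block, trend with robust eBayes, no _x_at probe sets and 1 value per gene could not move these estimates. The signs under those settings therefore carry no information. The change of the _s_at probe set of ST6GALNAC4 stayed positive (0.045 to 0.37) wherever a setting could move it. Leaving out dim probe sets could not move it either. With 1 value per gene, both ST6GALNAC4 probe sets were averaged (0.12), so that setting describes neither probe set alone. The 3 changes nearest 0 turned sign when arrays were left out, and the cause was not tested. The _at probe set of ST6GALNAC4 lay between -0.039 and 0.085 with 1 array left out in turn and was -0.043 without both arrays of number 2. ST6GALNAC5 ran from -0.080 to 0.068 and ST6GALNAC6 from -0.13 to 0.14. The gap between the ST6GALNAC4 probe sets, 0.21, lay between 0.084 and 0.29 with 1 array left out. The absence of detection calls and 3 arrays per population limit all of these values.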
